A study of Homo sapiens with 14 samples.

Results

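Transcripts that GENCODE release 44 types as nonsense-mediated decay were followed through the reactivity profiles of K562 cells, a human leukemia cell line. A row of a profile was taken where its transcript carried this type and its length equalled the annotated length. This gave 1513 of the 20512 transcripts listed in any profile, from 993 genes. Another 140 rows of the same type had a different length and were left out of all values that follow. The members were 250 to 8394 nt long with a median of 850 nt, against a median of 873 nt for the 2453 protein-coding isoforms of the same genes. Most genes, 689 of them, had a single member, and 8 genes had 7 members each, among them HNRNPU, a nuclear RNA-binding protein, and LDHA, a lactate dehydrogenase subunit.

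Nonsense-mediated decay removes mRNAs on which a ribosome stops well before the last exon junction. Splicing leaves an exon junction complex upstream of each junction, the first ribosomes clear the complexes that lie within the reading frame, and a complex that remains downstream of a terminating ribosome helps the helicase UPF1 to mark the mRNA for degradation. Many genes use the pathway on purpose: splicing factors of the SR and hnRNP families and several ribosomal proteins switch to an isoform with a poison exon, an inserted exon that carries a stop codon, when their protein is abundant. The transcript type is an annotation of this rule and not a measurement of decay in these cells.

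The study probed RNA with a pair of azide reagents, NAI-N3 in icSHAPE, which acylates flexible 2′-hydroxyls, and NAz-N3 in icLASER, which on UV light labels the C8 position of solvent-exposed purines. NAI-N3 was used at 100 mM for 5 min, and NAz-N3 from a 1 M stock with 10 min of light, on living cells (in vivo) or on K562 RNA that had been extracted and refolded (in vitro). All groups were the same untreated line, and polyadenylated RNA was sequenced. The 14 libraries were 3 icSHAPE in vivo, 2 icSHAPE in vitro and 3 DMSO icSHAPE controls, and 2 icLASER in vivo, 2 icLASER in vitro and 2 No UV icLASER controls. The authors had pooled them into 4 profiles, 1 for each reagent and condition, so every value below is a pooled value with no replicate error, no p-value was computed, and a standard deviation (SD) is the spread over transcripts, genes or stops. Each profile gives a transcript's RPKM, its reads normalised to transcript length and library size, and a score from 0 to 1 for each nucleotide, and the number of reads behind a score is unknown.

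The premature stop codons are the feature that defines these isoforms, and 9 of them are shown here in their sequence, in 3 sets that differ in where the stop comes from. The sequences are the mRNA strand of the GENCODE 44 transcripts, 30 bases each, with the stop codon in capitals. The first 4 stops lie in poison exons of splicing factors.
SRSF6 cassette exon: agccuuuugccauUAGacgcagggugaugg
SRSF7 cassette exon: gggaucugugccuUAAgugagauccccguc
TRA2B cassette exon: gcucaggaauaagUGAagcugaaauuugaa
SNRPB cassette exon: auuuguaaagcugUAGccuaaagggcucuc
The next 3 lie in intron sequence that an isoform kept, either next to a shifted splice site or as a whole retained intron.
RPS25 splice-site extension: aauaagaccucucUGAaagagacuagggaa
ASNS splice-site extension: guguuuuuguuugUGAaauaggcuccuucu
SRSF7 retained intron: cagguauuuauuuUAAuaaaggaaugguug
The last 2 lie inside the coding sequence of a coding isoform.
RPL37A coding sequence: aauaagaccaagaUGAagagacgagcugug
B2M coding sequence: uaugccugccgugUGAaccaugugacuuug

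In GRCh38 coordinates, these poison-exon stop codons occupy chr20:43459302-43459304 (+ strand) in SRSF6, chr2:38747067-38747069 (-) in SRSF7, chr3:185931772-185931774 (-) in TRA2B and chr20:2467258-2467260 (-) in SNRPB. The exons that hold them are 268 nt long in SRSF6 (chr20:43459153-43459420), 69 nt in SRSF7 (chr2:38747062-38747130), 276 nt in TRA2B (chr3:185931577-185931852) and 124 nt in SNRPB (chr20:2467192-2467315). The stop of RPS25 is at chr11:119017937-119017939 (-), that of ASNS at chr7:97854686-97854688 (-), that of the retained SRSF7 intron at chr2:38749516-38749518 (-), that of RPL37A at chr2:216499956-216499958 (+) and that of B2M at chr15:44715660-44715662 (+).

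All 1512 annotated stops, at 1368 distinct genomic positions, lay at least 50 nt before the last exon junction, as the type requires. The distance ran from 50 to 4818 nt with a median of 258.5 nt, and a median of 2 junctions followed the stop, although 440 members had 1 junction after it. The largest class, 750 members (49.6%), stopped inside the coding sequence of a coding isoform, and 732 of these stops were out of its frame, none was in frame, and the frame of 18 could not be set. Cassette exons held 356 stops (23.5%), splice-site extensions 173 (11.4%) and retained introns 16, and 186 members (12.3%) used the ordinary stop of a coding isoform and carried a spliced 3′ untranslated region behind it. UGA made up 57.7% of the 1368 stops of decay isoforms, among them those that a coding isoform also uses. It made up 49.7% of the 1071 ordinary stops of coding isoforms of the same genes. The stop lay in sequence outside every coding isoform in 549 members (36.3%).

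The profiles rarely saw the decay isoform alone. Of the 1459 members whose gene has an annotated coding isoform, 880 had any sequence outside its exons, and only 127 had 30% or more of their length there. The median unique share was 2.53%. Unique means outside the coding isoforms here, and other transcripts of the gene that are not coding may share such sequence. Reads from shared exons could come from either isoform, and which of several isoforms the alignment gave them to is not known, so an RPKM or a score in shared sequence is not specific to the decay isoform. How alike the rows are could be measured, because the same nucleotides were scored in both isoforms. This does not give the share of reads that came from either isoform. Across the positions shared with the highest coding isoform, Pearson's r between both rows of 1 profile had a median of 0.65 over 949 members in icSHAPE in vivo, 0.56 over 605 in icSHAPE in vitro, 0.60 over 860 in icLASER in vivo and 0.66 over 813 in icLASER in vitro, and r reached 0.9 in 5 to 22 members a profile. Identical nucleotides in 1 pooled profile thus carried different scores in their rows, and the scores of a single isoform hold that much spread.

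Decay isoforms were listed in numbers that differed between profiles, with 1238 in icSHAPE in vivo, 807 in icSHAPE in vitro, 1152 in icLASER in vivo and 1103 in icLASER in vitro. In all 4 profiles 687 members of 483 genes were present, and 358 members were in 1 profile only. All transcripts together had 16295, 12256, 16648 and 15853 rows in these profiles, so icSHAPE in vitro was the shortest for both. The members' median RPKM was 10.7 in icSHAPE in vivo, 13.5 in icSHAPE in vitro, 10.5 in icLASER in vivo and 10.5 in icLASER in vitro. No member was listed below an RPKM of 5.09, so a decay isoform at a lower level has no row, and the ratios below hold for listed rows. The coding isoforms of the same genes had medians of 12.2, 14.8, 11.96 and 12.1 in the same order. Scores covered 94.4% to 94.8% of the members' nucleotides, with means of 0.170 in icSHAPE in vivo, 0.145 in icSHAPE in vitro, 0.156 in icLASER in vivo and 0.155 in icLASER in vitro.

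The first comparison asks how high decay isoforms stood beside the coding isoforms of their genes. Most lay below. The median log2 ratio to the highest coding isoform of the gene was -0.47 in icSHAPE in vivo (mean -0.57 ± 0.62, SD, n = 1160), -0.44 in icSHAPE in vitro (-0.56 ± 0.65, n = 759), -0.41 in icLASER in vivo (-0.59 ± 0.73, n = 1061) and -0.39 in icLASER in vitro (-0.53 ± 0.65, n = 1031). The median decay isoform therefore had 0.724, 0.739, 0.751 and 0.762 of the RPKM of that coding isoform. A decay isoform was above it in 149 members (12.8%), 114 (15.02%), 182 (17.2%) and 181 (17.6%), where 9.03%, 9.57%, 14.9% and 12.8% of all isoforms of coding genes not typed protein-coding were. Retained-intron transcripts stood lower than the decay isoforms in all 4 profiles, with medians of -0.95, -0.98, -0.97 and -0.88 over 1452 to 2041 rows.

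The ratio moved with how much of the isoform lay outside the coding isoforms. Members with at least 30% unique sequence had medians of -1.13 in icSHAPE in vivo (n = 86), -0.94 in icSHAPE in vitro (n = 55), -1.03 in icLASER in vivo (n = 95) and -0.99 in icLASER in vitro (n = 81), close to the retained-intron transcripts. Members with none had medians of -0.34, -0.35, -0.28 and -0.28 over 313 to 460 rows. In the plot of decay against coding RPKM the members with much unique sequence sit below the line of equal RPKM in all but 2 to 5 cases a profile. Whether shared reads raise the others towards their coding isoforms was not tested. The choice of the highest coding isoform sets the size too: against the median coding isoform the ratios were -0.11 to -0.15 and those of 23 members chosen for naming changed sign, and against the sum of all coding isoforms -1.85 to -2.01.

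**Figure D1:**
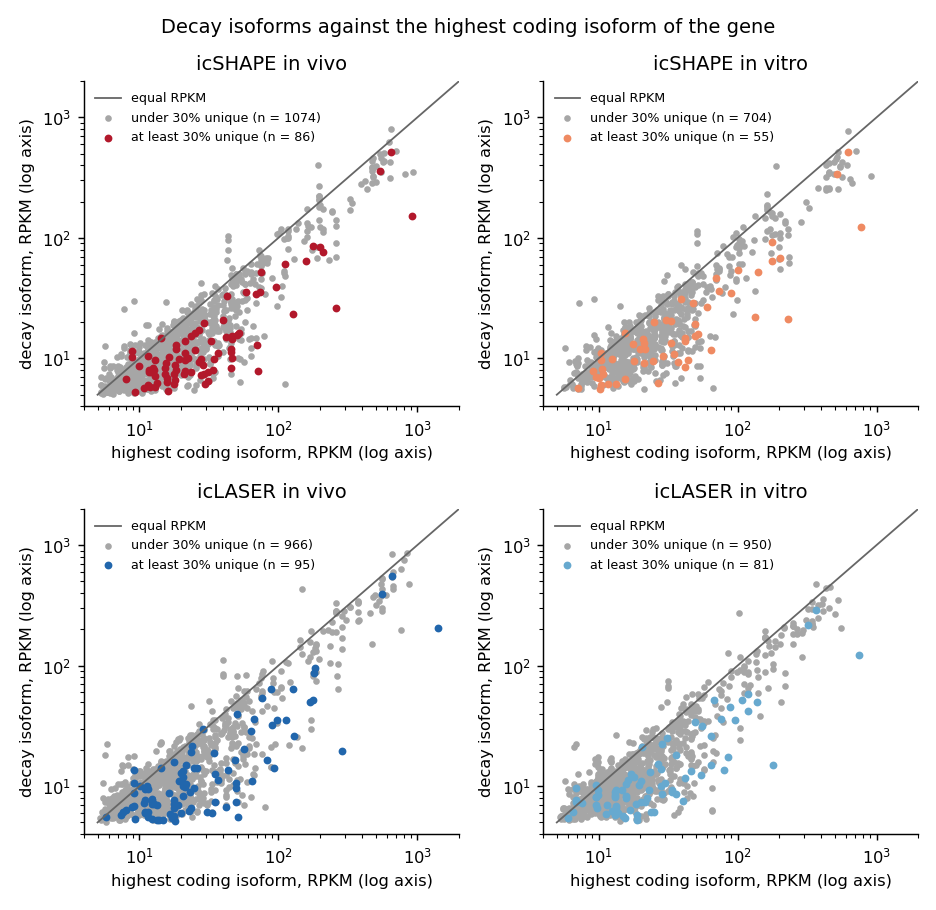
RPKM of each decay isoform (vertical, log axis) against that of the highest coding isoform of its gene (horizontal, log axis) in the 4 pooled profiles, 1 point per member, with the line of equal RPKM. Members with at least 30% unique sequence are coloured, and their median log2 ratios run from -1.13 to -0.94.

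The highest decay isoforms belonged to ribosomal proteins, which build the small and large ribosomal subunits, and those of RPS25 and RPL37A stood near or above their coding isoforms. RPS25 had an RPKM of 797 in icSHAPE in vivo, 772 in icSHAPE in vitro, 840 in icLASER in vivo and 480 in icLASER in vitro, against 642, 626, 654 and 367 for its only coding row, and was thus the higher isoform in every profile. RPL37A had 629, 516, 865 and 440 against 626, 532, 841 and 436, and its log2 ratios ran from -0.04 to 0.04. Unique sequence made up 38 nt of the RPS25 isoform and 35 nt of the RPL37A isoform, so that most of their sequence is shared. Among the 10 highest were also RPL27, RPL13A, RPL35A, RPLP0 and RPL27A. Their mean log2 ratios were -0.43, -0.21, -0.11, -0.07 and -0.37, where the median over all members in all 4 profiles was -0.42. A single gene of another kind was among the 10, UQCRH, a subunit of respiratory complex III, with log2 ratios from -0.41 to -0.19.

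The members farthest above their coding isoforms came from genes with a single coding row. The 5 largest mean log2 ratios included 1.84 for the readthrough gene ATP5MF-PTCD1, 1.70 for MAD2L1, a spindle checkpoint protein, 1.26 for B2M, the light chain of class I major histocompatibility molecules, and 0.95 for SMDT1, a subunit of the mitochondrial calcium uniporter. MAD2L1 had an RPKM of 29.9, 31.1, 18.1 and 21.3 against 9.11, 9.27, 5.64 and 6.68, and B2M 103, 107, 111 and 74.9 against 43.3, 50.9, 39.97 and 31.7, in the order icSHAPE in vivo, icSHAPE in vitro, icLASER in vivo and icLASER in vitro. Neither isoform has unique sequence. The readthrough isoform shares exons with the neighbouring gene, and such sequence, in 74 readthrough members, counted as unique here because it was compared with the coding isoforms of its own gene alone.

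At the other end stood 5 isoforms whose unique share ran from 17.04% to 88.4%. An RPS9 isoform with the highest of these shares had an RPKM of 25.98, 21.2, 19.5 and 14.9 against 261, 231, 289 and 180. Its mean log2 ratio of -3.57 was the lowest. RPS19, whose unique share is 71.8%, had 151, 123, 205 and 123 against 918, 774, 1400.2 and 744 and a mean ratio of -2.65. MYL6, a myosin light chain with 77 unique nt, followed at -2.59 and ATP6V1G1, a subunit of the vacuolar proton pump, at -2.57. SLC25A37, the mitochondrial iron importer of erythroid cells, had a decay isoform at 6.18, 5.71, 9.15 and 8.87 against 111, 66.7, 26.4 and 40.8. Its mean ratio of -2.86 was the next lowest after that of RPS9, and its ratio ran from -4.17 in icSHAPE in vivo to -1.53 in icLASER in vivo.

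The next comparison sets the ratio in cells against that in refolded RNA. It hardly moved. The log2 ratio in vivo minus in vitro had a median of 0.02 in icSHAPE (mean 0.01 ± 0.16, SD, n = 729) and -0.06 in icLASER (-0.10 ± 0.24, n = 887). No member rose 2-fold and 2 fell 2-fold in icSHAPE, where 0.0322% and 0.45% of all isoforms not typed protein-coding did. In icLASER no member rose and 3 fell, with 0.134% and 0.538% over all such isoforms. The RPKM itself moved further than the ratio, with medians of 0.13 in icSHAPE and 0.09 in icLASER on the log2 scale. Over all transcripts these medians were 0.13 and 0.11. In icSHAPE none of 772 members was 2-fold higher in vivo and 5 were 2-fold lower, against 0.299% and 2.64% of all transcripts, and in icLASER 1 of 951 was higher and 9 were lower, against 1.21% and 2.39%. The refolded RNA had been extracted from the same line, so decay before extraction is part of both conditions. Each reagent had a single control group, and the library behind the RPKM is not stated. Whether a control common to both conditions holds these values still is therefore not known. With at least 30% unique sequence the medians were 0.01 (n = 50) and -0.07 (n = 76).

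Splicing regulators, on a list of 27 genes, gave 35 members of 19 genes, and their decay isoforms stood at 0.652, 0.653, 0.693 and 0.678 of the highest coding isoform by the median. Of the 19 members present in all 4 profiles, 18 had a mean log2 ratio below 0, with a median of -0.56, beside 550 of 648 members (84.9%) and -0.42 over all members. SRSF6, an SR protein, was the exception, with an RPKM of 29.2, 30.4, 17.6 and 29.2 against 27.0, 28.3, 16.96 and 22.1, although 15.95% of this isoform lies outside the coding isoforms. SRSF3 had 25.02, 29.3, 20.01 and 25.8 against 29.3, 30.3, 24.03 and 28.5, and TRA2B, a splicing activator, 12.45, 12.8, 7.31 and 11.7 against 16.7, 14.3, 9.69 and 12.5. SNRPB, a core protein of spliceosomal particles, had 94.97, 75.8, 73.4 and 68.4 against 152, 127, 121 and 123. The lowest ratios among those named belonged to HNRNPA1, with -1.13, -1.22, -1.68 and -1.35, to PTBP1 and to SRSF1.

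Ribosomal proteins gave 52 members of 32 genes. Of the 50 in all 4 profiles, 38 had a mean ratio below 0, and their median was -0.38. RPS3 and RPL22L1 were among those above their coding isoforms in all 4 profiles, with mean ratios of 0.30 and 0.28, while RPL5, RPL3 and RPS2 lay low at -1.56, -1.24 and -0.91. Processed copies of ribosomal protein genes share reads with them, which makes their levels uncertain. A further list of 20 genes, taken here as decay targets without a measurement of their decay, gave 11 members of 7 genes. The 7 members in all 4 profiles had mean ratios below 0 but near it, with a median of -0.05. FTH1, the ferritin heavy chain, had a mean ratio of -0.01, EIF4A2, a translation helicase, of -0.00232, OAZ1, the antizyme of polyamine synthesis, of -0.15 and ASNS, asparagine synthetase, of -0.24. The 19 genes of the decay and exon junction machinery, UPF1 among them, had no member. No statement about a list as a whole was tested.

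The second set of comparisons turns to the scores. Over whole transcripts the decay isoforms moved about as far as coding isoforms. The mean score was higher in vivo in icSHAPE by 0.0265 ± 0.0195 (SD, n = 772), with 0.0249 ± 0.0191 in the coding isoforms of the same genes, and in icLASER by 0.00780 ± 0.0176 (n = 951), with 0.00919 ± 0.0190. In icSHAPE 90 members (11.7%) were higher in vivo by at least 0.05, against 9.58% of all transcripts, and none was lower by as much, against 0.0696%. In icLASER 10 members were higher, 1.05% against 1.93%, and 3 lower, 0.315% against 0.861%.

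Around the premature stop the reagents differed. In icSHAPE both the codon and its surroundings had higher mean scores in cells, as had ordinary stops. The codon had a mean score of 0.260 in vivo and 0.197 in vitro, a difference of 0.0635 ± 0.228 (SD, n = 672 stops of 502 genes), and the 50 nt on each side 0.175 and 0.132, a difference of 0.0426 ± 0.0622. The surroundings were higher in vivo at 543 premature stops (80.8%), beside 79.5% of ordinary stops of all genes. Ordinary stops of the same genes differed by 0.0451 at the codon and 0.0356 beside it (n = 589). The second base of the premature codon, always a purine, differed by 0.0993 and the first base, always U, by 0.0374. The codon was higher in vivo at 344 stops and lower at 176, the rest being equal, where 58.1% and 31.2% of ordinary stops of all genes were. With each profile divided by its own mean the difference was 0.0269 at the codon and 0.0180 beside it, and with medians over positions 0.00372 beside it. The codon of premature stops lay above that of ordinary ones by 0.0184, and with stops from the central of 3 equal stretches of the transcript by -0.00851, so no direction held between them.

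In icLASER the premature stop codon had a lower mean score in cells than in refolded RNA, whereas the ordinary one had a higher one. The premature codon had 0.211 in vivo and 0.255 in vitro, a difference of -0.0444 ± 0.206 (n = 809 stops of 616 genes), and the 50 nt on each side 0.141 and 0.147, a difference of -0.00633 ± 0.0609 that turned to 0.00114 with medians over positions. Ordinary codons of the same genes had 0.227 and 0.201, a difference of 0.0257 ± 0.171 (n = 744), and their surroundings 0.162 and 0.123, a difference of 0.0389 ± 0.0655. The premature codon was lower in vivo at 369 stops (45.6%) and higher at 261 (32.3%), beside 39.4% and 52.8% of ordinary stops of all genes. Its surroundings were higher in vivo at 379 stops (46.8%), beside 71.7% of ordinary stops of all genes. Each mean difference is small beside the spread over single stops.

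**Figure D2:**
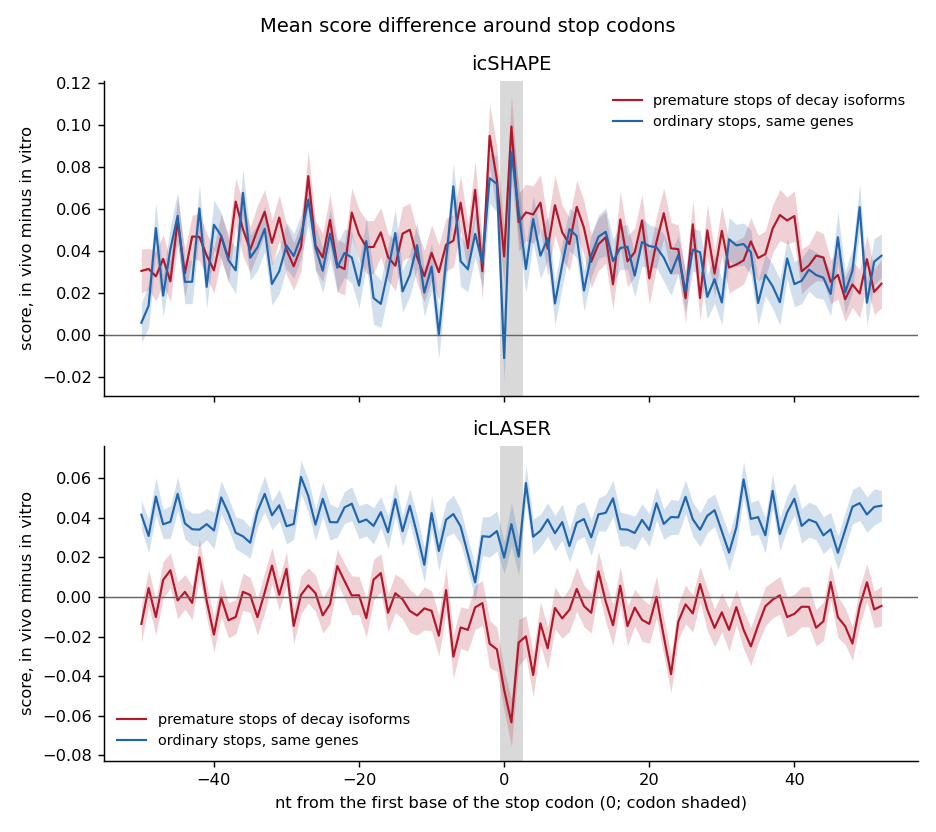
Mean score in vivo minus in vitro (vertical) at each nucleotide from 50 nt before to 50 nt after the stop codon (horizontal, nt), for premature stops of decay isoforms and ordinary stops of coding isoforms of the same genes, with bands that are the standard error over stops, which share genes and pooled profiles. In icLASER the premature stops run near 0 with a low of -0.0633 at the second base of the codon, and ordinary stops run near 0.0389, while in icSHAPE both lie near 0.04.

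The level and the dip of the icLASER pattern appeared away from premature stops as well. The place of the stop differed between the sets: premature stops lay at 37.0% of the transcript's length by the median and ordinary ones at 67.8%, and the icLASER difference rose along decay isoforms from -0.0194 ± 0.0339 before the midpoint to 0.0332 ± 0.0354 after it (n = 658), and in coding isoforms of the same genes from -0.0211 to 0.0360 (n = 590). With stops from the central of 3 equal stretches of the transcript on both sides, the gap between premature and ordinary stops narrowed from -0.0701 to -0.0398 at the codon and from -0.0452 to -0.0187 beside it. Some stops counted as premature are also used by a coding isoform. Without these the gap was -0.0717 at the codon and -0.0477 beside it. The dip at the codon was also seen at the same letters elsewhere: the codon lay below its own surroundings by -0.0381 ± 0.191 at premature stops, and UAA, UAG and UGA triplets within the reading frame of the same transcripts, where no stop is annotated, by -0.0303 ± 0.0891 (7059 triplets in 769 transcripts). In coding isoforms the ordinary stop lay lower than its surroundings by -0.0131 ± 0.156, and the same triplets in the reading frame by -0.0333 ± 0.0527. This comparison with other triplets was chosen after the profiles had been seen.

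The levels went with the origin of the stop, at the codon and in its surroundings. In vivo the 50 nt on each side had 0.209 in icSHAPE and 0.173 in icLASER for stops in coding sequence. They had 0.125 and 0.0908 for cassette exons, and 0.146 and 0.110 for splice-site extensions. Stops in these exons and extensions lie in unique sequence, where most scores were 0, so origin and sparse scores cannot be told apart. Stops in the coding sequence of another isoform were the most reactive codons, with 0.343 in vivo and 0.282 in vitro in icSHAPE (n = 358) and 0.287 and 0.347 in icLASER (n = 416). Stops in cassette exons had 0.134 and 0.0802 in icSHAPE (n = 139) and 0.116 and 0.106 in icLASER (n = 177), a difference of 0.0106 in icLASER, where the other classes given here were negative. Stops in splice-site extensions had 0.178 and 0.0919 in icSHAPE (n = 70) and 0.105 and 0.205 in icLASER (n = 87), the widest icLASER difference at -0.0998 ± 0.236. Stops that a coding isoform also uses had 0.168 and 0.202 in icLASER (n = 106). Where the stop lay in coding sequence, the same nucleotides could be read in the coding isoform, where they are sense codons in another frame: in icLASER they differed by -0.0356 there and by -0.0587 in the decay isoform (n = 241), a gap of -0.0231 ± 0.194, and in icSHAPE by 0.0289 and 0.0381 (n = 203). In the 50 nt on each side the icLASER difference was -0.0103 in the coding isoform and -0.000333 in the decay isoform. This gap of 0.00992 ± 0.0539 had the opposite sign to that at the codon. It was also opposite in sign to the -0.0452 between premature and ordinary stops beside the codon. In icSHAPE the 50 nt on each side differed by 0.0286 in the coding isoform and 0.0395 in the decay isoform. The rows of both isoforms draw on shared reads.

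Single stops show the range behind these means. In RPS25 the codon, UGA, had a mean score of 0.275 in icSHAPE in vivo and 0 in vitro, and 0.901 in icLASER in vivo and 0.610 in vitro. RPL37A, with the same codon, had 0.176 and 0.412 in icSHAPE and 0.739 and 0.738 in icLASER. At SRSF6 the UAG had 0.478 and 0.537, then 0.355 and 0.354. At TRA2B the UGA had 0.115 and 0, then 0.667 and 0. The cassette-exon stop of SRSF7 and the stop of ASNS were above 0 in icSHAPE in vivo alone, at 0.333 each. RPS25 and TRA2B were thus higher in vivo with both reagents, and RPL37A and SRSF6 differed by less than 0.01 in icLASER.

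Unique sequence, outside every coding isoform of the gene, was scored at most of its nucleotides, and most of these scores were 0. In 1 transcript per gene with at least 20 scored positions on each side, unique sequence had a mean score of 0.121 ± 0.0797 in icSHAPE in vivo and 0.0759 ± 0.0696 in vitro (SD, n = 281), against 0.176 ± 0.0259 and 0.153 ± 0.0261 in the shared sequence of the same transcripts. In icLASER it had 0.0791 ± 0.0591 in vivo and 0.0950 ± 0.0711 in vitro (n = 346), against 0.174 ± 0.0280 and 0.160 ± 0.0286. Scores of 0 made up 80.8% and 89.9% of unique positions in icSHAPE and 86.3% and 84.5% in icLASER, against 34.9%, 55.3%, 41.6% and 43.3% of shared ones. Of all unique nucleotides 83.2% to 85.8% were scored, against 95.9% to 96.3% of shared ones. Unique sequence was lower than shared sequence in vivo in 208 of 281 members in icSHAPE (74.0%) and 317 of 346 in icLASER (91.6%), where 81.6% and 89.2% of 1 transcript per gene over all types were, so the lower level was shared by other transcripts. In vitro it was lower in 240 of 281 and 279 of 346, beside 82% and 78.3%.

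**Figure D3:**
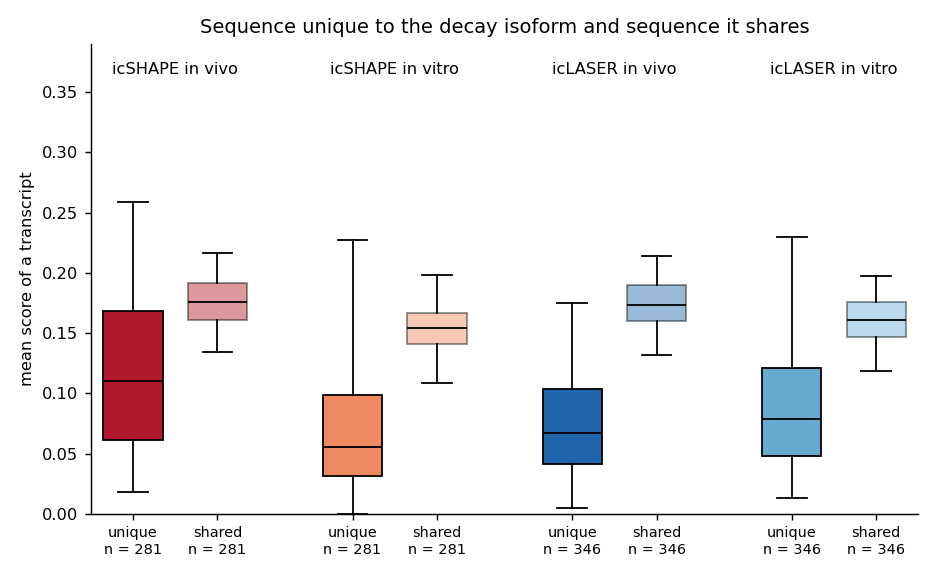
Mean score per transcript (vertical, 0 to 1 scale) in sequence of the decay isoform outside every coding isoform (unique) and in sequence it shares with coding isoforms, in the 4 pooled profiles. Boxes are quartiles with the median, whiskers the 5th to 95th percentile over 281 (icSHAPE) and 346 (icLASER) transcripts, 1 per gene. Unique sequence is lower and far more spread than shared sequence in each profile. Its means rest on fewer scored positions, by the median 109 against 663 a transcript in icSHAPE and 119.5 against 675.5 in icLASER. The part of this number in the spread was not tested.

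The difference between cells and refolded RNA went opposite ways in unique sequence. In icSHAPE it was 0.0452 ± 0.0591 in unique and 0.0226 ± 0.0273 in shared sequence, a gap of 0.0226 ± 0.0731 that was positive in 182 of 281 genes (64.8%), beside 51.3% over all types, and negative in 99 (35.2%), beside 48.7%. Coding transcripts had a gap of 0.00804 (n = 952) and retained-intron transcripts one of -0.00776 (n = 652). In icLASER it was -0.0159 ± 0.0592 in unique and 0.0133 ± 0.0309 in shared sequence, a gap of -0.0292 ± 0.0752, negative in 236 of 346 genes (68.2%), beside 69.6% over all types. Retained-intron transcripts had -0.0490 (n = 840) and coding ones -0.0454 (n = 1116), so this gap was no wider in decay isoforms than in others. With positions before the midpoint of the transcript alone the icLASER gap was -0.0106 (n = 283) and the icSHAPE gap 0.0272 (n = 219). With unique sequence outside every other transcript of the gene, coding or not, fewer genes remained. The gap was then 0.0185 in icSHAPE (n = 181) and -0.0230 in icLASER (n = 217).

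By the kind of insert, splice-site extensions led in icSHAPE, with 0.136 in vivo and 0.0726 in vitro and a difference of 0.0634 ± 0.0598, positive in 84 of 97 genes. Cassette exons had 0.103 and 0.0587, a difference of 0.0445 ± 0.0561, positive in 128 of 160, and retained introns 0.115 and 0.0726 (n = 19). These shares are 86.6% for extensions and 80% for cassette exons. Over unique sequence of any kind the share was 80.1% of decay isoforms, 75% of coding transcripts and 67.9% of retained-intron transcripts. In icLASER cassette exons had 0.0716 and 0.0808, a difference of -0.00919 ± 0.0504 (n = 191), splice-site extensions 0.0868 and 0.107, -0.0200 ± 0.0626 (n = 132), and retained introns 0.0741 and 0.106, -0.0321 ± 0.0614 (n = 21). Cassette exons thus differed least between cells and refolded RNA in icLASER, by less than the spread between them.

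The poison exons of splicing factors did not share a direction in icLASER. The TRA2B exon had a mean of 0.184 in icSHAPE in vivo, 0.190 in icSHAPE in vitro, 0.303 in icLASER in vivo and 0.1495 in icLASER in vitro. The SRSF3 exon had 0.0816, 0.125, 0.128 and 0.0537, and the SRSF6 exon 0.242, 0.231, 0.0979 and 0.0466. These 3 had higher mean scores in cells in icLASER, each a pooled value from an unknown number of reads. The TRA2B isoform lay below the members' median RPKM of 10.5 in icLASER in vivo. The SNRPB exon had 0.122, 0.0887, 0.110 and 0.254, the HNRNPL exon 0.0708, 0.0630, 0.0571 and 0.108, and the SRSF7 exon 0.128, 0.0567, 0.0276 and 0.0376. These had lower mean scores in cells in icLASER. SRSF6 had the fewest zeros in icSHAPE in vivo, 30.2%, as many as the shared sequence of its transcript with 30.2%, and SRSF3 had 91.8%.

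The 8 members with the most scored unique positions were all lower in cells in icLASER over their unique sequence and higher over their shared sequence. Both directions were the common ones in other transcripts too. Unique sequence was lower in 60.4% of decay isoforms, 66.7% of coding and 68.7% of retained-intron transcripts. Shared sequence was higher in 74.6%, 68.5% and 75.4% of them. The splice-site extension of SNRNP70, a protein of the U1 particle, 1469 nt at chr19:49102119-49103587, had 0.0298 in vivo and 0.111 in vitro in icLASER and 0.0553 and 0.0574 in icSHAPE. That of PCBP2, a poly(C)-binding protein, 1215 nt at chr12:53459800-53461014, had 0.0645 and 0.178 in icLASER and 0.0686 and 0.0721 in icSHAPE. The 875 nt retained intron of SRSF7 at chr2:38748654-38749528 had 0.115 and 0.185 in icLASER, and the 456 nt intron of VIM, vimentin, at chr10:17235390-17235845 had 0.0765 and 0.179. The unique sequence of RBMX, an RNA-binding protein, and of EIF3M, a translation initiation factor subunit, had 0.0594 and 0.173, and 0.0529 and 0.121. RPS19 had 0.0370 and 0.0928, and the readthrough gene ENSG00000256646 0.0862 and 0.118. In shared sequence the values were 0.192 and 0.0894 in PCBP2, 0.195 and 0.0980 in EIF3M and 0.193 and 0.112 in VIM.

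Ribosomal protein inserts varied. RPS2, 187 nt of cassette exon, had 0.160 and 0.233 in icSHAPE and 0.162 and 0.355 in icLASER, lower in cells with both reagents. RPL5, 154 nt of cassette exon, had 0.173 and 0.108 in icSHAPE and 0.110 and 0.0348 in icLASER, higher in cells with both. RPS25, whose extension has 33 nt, had 0.297 and 0.241 in icSHAPE and 0.293 and 0.496 in icLASER. RPS14 had 0.188 and 0.0788, then 0.105 and 0.114.

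**Figure D4:**
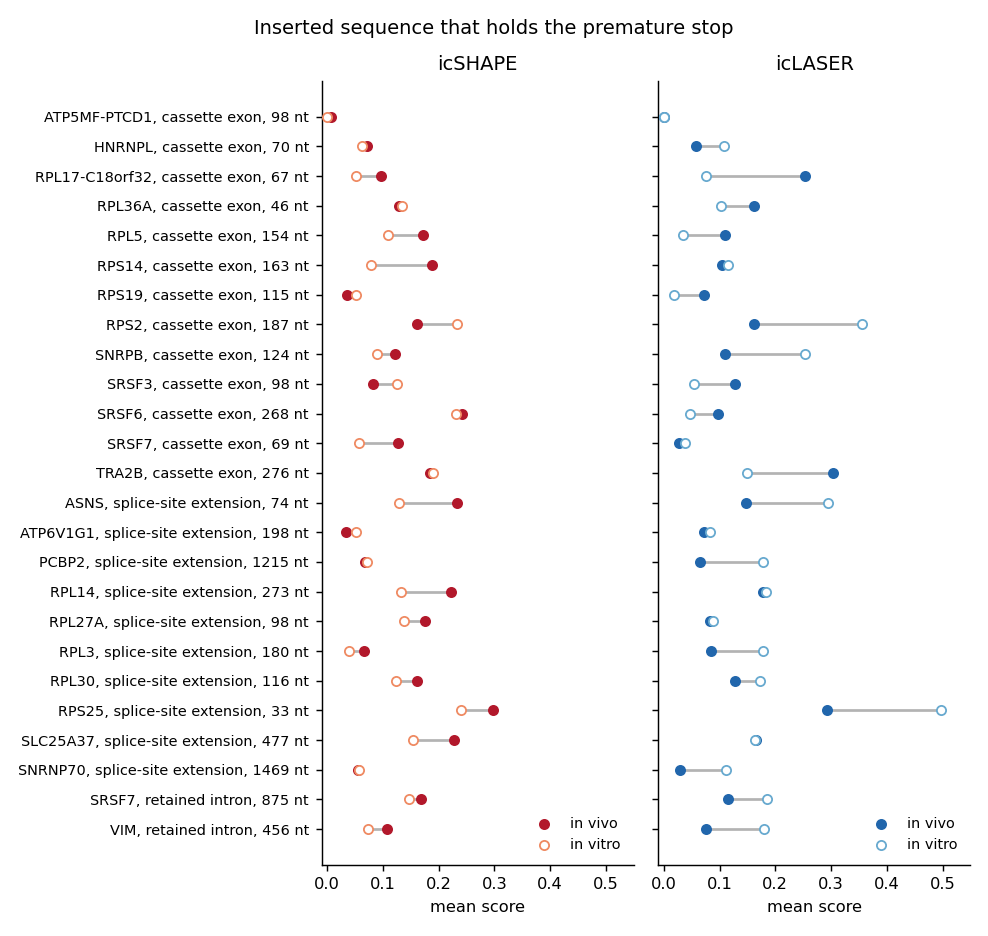
Mean score (horizontal) of the inserted sequence that holds the premature stop in named members with at least 20 inserted positions scored in all 4 profiles, filled points in vivo and open points in vitro, for icSHAPE and icLASER. Each point is 1 pooled value. The widest icLASER differences are RPS25 and RPS2, lower in vivo, and RPL17-C18orf32 and TRA2B, higher in vivo.

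The last comparisons follow the rule of decay itself, by setting sequence and junctions that ribosomes pass before the premature stop against those behind it. In 383 of the 1513 members the start was not found in the annotation. Such members were not left out, and their frame was taken from its first annotated base. In icSHAPE nothing separated them: the difference was 0.0311 ± 0.0460 in the reading frame and 0.0289 ± 0.0371 after the stop (SD, n = 532), a gap of 0.00211 ± 0.0650. In icLASER it was -0.0191 ± 0.0475 in the frame and 0.0278 ± 0.0365 after the stop (n = 656), and the gap of -0.0469 ± 0.0630 was negative in 531 members (80.9%). Ordinary coding isoforms of the same genes had a wider gap, -0.0693 ± 0.0773 (n = 536), and 83.5% of coding isoforms of all genes had a negative one, and it is near the gap between the parts of a decay isoform before and after its midpoint, -0.0526 ± 0.0594. The frame against what follows it and the 5′ part against the 3′ part cannot be told apart here.

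**Figure D5:**
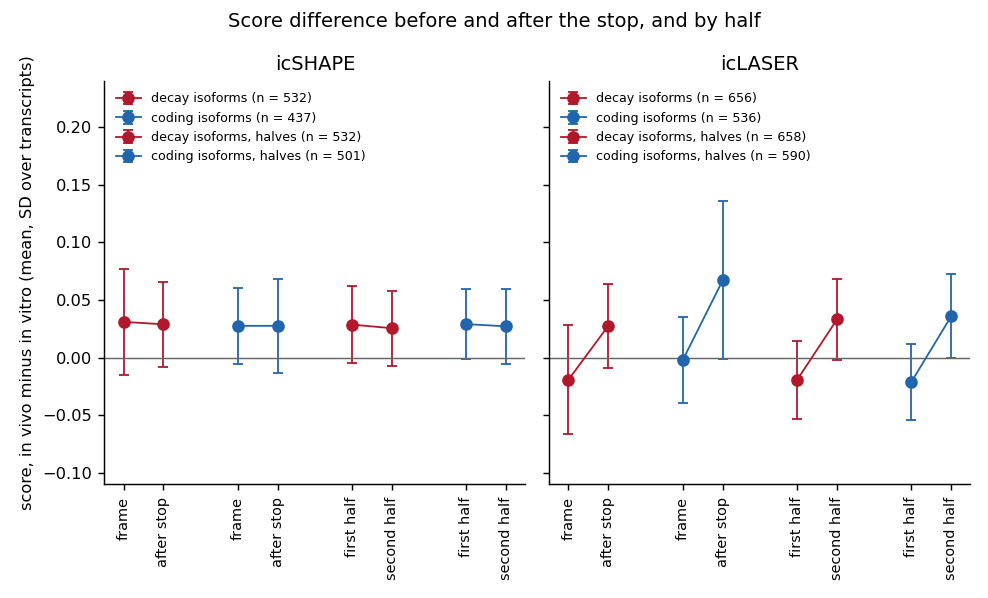
Mean score in vivo minus in vitro (vertical) with the SD over transcripts, in the reading frame and after the stop codon and before and after the midpoint of the transcript, for decay isoforms and for coding isoforms of the same genes, 1 transcript per gene. In icLASER all 4 pairs rise, from between -0.0211 and -0.00216 to between 0.0278 and 0.0672, and in icSHAPE all lie near 0.03.

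At exon junctions, the 50 nt before each junction behind the stop, where an exon junction complex would remain, were set against those before junctions in the frame, which ribosomes would clear. In icLASER the difference was 0.0172 ± 0.0506 behind and -0.0130 ± 0.0525 before the stop (n = 605), a gap of 0.0302 ± 0.0726 that was positive in 413 genes (68.3%). Over all transcripts that have both the share was 68.4%, but 577 of those 649 were decay isoforms themselves, so the shares could hardly differ. Of the other 72 transcripts 47 had a positive gap. In the 20 to 24 nt before the junction, where the complex binds, the gap was 0.0340 ± 0.122 (n = 601). In icSHAPE it was -0.0044 ± 0.0892 over 50 nt, positive in 243 of 497 genes (48.9%) beside 50.7% of 542 transcripts of which 478 were decay isoforms, and 0.00807 ± 0.131 at the binding site (n = 491). The icLASER gap has the same sign as the rise along the transcript given above, whose part in the result was not tested.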

How the data were processed

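Polyadenylated RNA of K562 cells was probed by icSHAPE and icLASER. The authors trimmed reads with Trimmomatic, aligned them with Bowtie2 to the Ensembl 88 GRCh38 transcriptome and scored each position with the icSHAPE pipeline, whose final minimums they set to 0, in versions not given in the sources used here. The deposited score runs from 0 to 1, and NULL positions were left out. The RPKM was deposited by the authors beside it, and the library behind it is not stated. The authors pooled the replicates and controls of each reagent and condition into 1 profile, so that no fit or p-value was possible and depth per position is unknown.

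Transcript types, exons, stops and sequences were taken from GENCODE 44 (GRCh38). Members were matched by transcript and equal length. Unique sequence lay outside every coding isoform of the gene. Transcript means needed 100 scored positions, and splits 20 on each side. Differences are in vivo minus in vitro. Named were the 10 members with the highest RPKM, the 8 with the most unique positions, the 5 with the largest and the 5 with the smallest ratio to coding, and members of the lists, 1 per gene and in all 4 profiles. Some members that this rule takes are not reported here. Members and lists were chosen with earlier results of these data known. The scripts, in Python 3.11.15 with numpy 2.4.6 and matplotlib 3.10.9, were tested on simulated data. Alternatives covered the coding reference, the window, the bases, the scaling and the choice of stops and positions.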

Additional observations from a re-analysis of the deposited data

How the results depend on the processing

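No paired analysis was possible because the pooled profiles carry no replicate numbers, and leaving out a replicate could not be run for the same reason. Of 114 alternative values of the comparisons, 76 stayed within the error over transcripts, 37 moved further, and 1 turned sign from a value beyond that error. With values nearer 0 counted too, 5 changed sign. Of 124 for single transcripts 22 stayed within the SD over profiles and 102 moved further, and 28 changed sign, 23 against the median coding isoform and 5 against the sum. Error here is the spread over transcripts or stops of 1 pooled profile, and the cause of each move was not tested beyond what an alternative is made of.

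Keeping members of all 4 profiles left 687 of each profile's members. In the order icSHAPE in vivo, icSHAPE in vitro, icLASER in vivo and icLASER in vitro, the log2 ratio was -0.15, -0.14, -0.11 and -0.12 against the median coding isoform, -2.01, -1.93, -1.85 and -1.86 against their sum, -1.13, -0.94, -1.03 and -0.99 with at least 30% unique sequence, and -0.35, -0.33, -0.31 and -0.28 with 1 decay isoform per gene. The change of the ratio in vivo became 0.0065 in icSHAPE with at least 30% unique sequence and -0.0116 in icLASER against the median coding isoform.

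In icSHAPE, dividing each profile by its own mean gave 0.0269 at the codon, 0.0180 beside it and 0.0334 for unique against shared sequence. The surroundings of the stop had 0.0371 over 100 nt and 0.00372 with medians over positions, and in icLASER medians turned their difference to 0.00114. With A and G alone, unique against shared sequence was 0.0134 in icSHAPE, and the reading frame against what follows was -0.0639 in icLASER. UGA stops alone gave -0.0901 for premature against ordinary codons in icLASER. Junctions at least 50 nt from the stop gave 0.00352 in icSHAPE and 0.0399 in icLASER, and the 20 to 24 nt site gave 0.00807 in icSHAPE, both icSHAPE values of opposite sign to the 50 nt window.

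Chosen after seeing the data were stops that no coding isoform uses, stops in the central stretch of the transcript, positions before its midpoint, coding isoforms for the reading frame, and ratios without ribosomal protein genes. With central stops, premature against ordinary codons gave -0.00851 in icSHAPE, where all stops gave 0.0184, and -0.0398 in icLASER, with -0.0187 beside the codon. Positions before the midpoint gave -0.0106 for unique against shared sequence in icLASER, and coding isoforms gave -0.0693 for the reading frame.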
